A study of Homo sapiens with 8 samples.

Results

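The GPRASP and ARMCX genes encode one family of armadillo-repeat proteins, and 10 of its genes are described here out of the 60651 in the deposited table of ribosome footprints. They were taken by symbol: GPRASP1, GPRASP2 and GPRASP3 (BHLHB9 in older annotation), ARMCX1 to ARMCX6, and ARMC10. Each symbol matched 1 row of the table. The family was singled out with the CR31B against DMSO differences of these same libraries in view, so those differences are given as a description. Where limma's call or interval for a member is stated, it places the member among all genes of that fit and is no independent evidence of a change.

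Armadillo repeats are short helical units that stack into a scaffold for binding other proteins. GPRASP proteins (G-protein-coupled receptor associated sorting proteins) bind the cytoplasmic tails of such receptors, and GPRASP1 is known for steering internalised receptors to the lysosome. Several ARMCX proteins carry an N-terminal anchor for the mitochondrial outer membrane, where ARMCX1 and ARMCX3 bind the Miro and TRAK proteins that couple mitochondria to kinesin motors in neurons. ARMC10 is the autosomal relative from which the X-linked genes are thought to derive, and they are found in placental mammals.

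The cells were IMR32, a human neuroblastoma line known for amplified MYCN and labelled WT in genotype. In 4 libraries the cells had received CR31B, an analogue of silvestrol, for 6 h, and in the other 4 they had received the solvent DMSO at 0.1%. Rocaglates such as CR31B hold the helicase eIF4A on purine-rich RNA and thereby slow the scanning of many mRNAs. Cells of both groups were given cycloheximide, which stalls elongating ribosomes, before harvest, and protected fragments of 28 to 30 nt were selected. All 8 libraries come from 1 cell line. The design calls the 4 libraries per group biological replicates, without saying how the cultures were separated.

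Levels are in TPM, a unit scaled for transcript length and for the library's total. Genes averaging at least 1 TPM across all libraries were tested, and differences are CR31B minus DMSO in log2(TPM + 1), a scale that understates the change of low genes. Where 4 values of a group are listed, they stand in the order of replicates 1 to 4. A gene is called when limma's adjusted p over all 11778 tested genes is under 0.05. Of the 10 members, 9 were tested; GPRASP1 was too low. Only footprints were used here, so a change in mRNA amount and a change in its translation cannot be told apart, nor can fewer expressing cells and less RNA per cell.

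Per library, 17857 to 22270 genes had a value above 0, and the share of TPM in protein-coding genes was 51.8% to 61.3%. Among markers of neuroblastoma identity, HAND2, a transcription factor of sympathetic neuron precursors, was at 250.39 to 318.77 TPM in CR31B and at 159.95 to 195.24 TPM in DMSO, and it rose by 0.58 (limma adjusted p of 0.0188). GAP43, a protein of growing axons, was at 3.01 to 4.48 TPM in CR31B and at 7.13 to 9.57 TPM in DMSO, and it fell by 1.02 (limma adjusted p of 0.00354). Of 17 markers of mesenchymal and other cells, 5 passed the filter, the summed level of all 17 ran from 47.79 to 60.88 TPM in CR31B and from 42.06 to 66.5 TPM in DMSO, and PRRX1, PECAM1 and SOX10 were at 0 in every library. TWIST1, at 26.15 to 40.81 TPM, made up most of that sum. The part of these markers in the results was not tested.

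In GENCODE release 29 (GRCh38), 9 of the 10 genes lie on the X chromosome within chrX:101418287-102753540, a stretch of 1.34 Mb. They form a proximal group of ARMCX4, ARMCX1, ARMCX6, ARMCX3 and ARMCX2 and a distal group of ARMCX5, GPRASP1, GPRASP2 and GPRASP3, separated by 939.3 kb. GPRASP2 occupies chrX:102712176-102717733 on the + strand, 3.0 kb from GPRASP3 and 53.1 kb from GPRASP1. ARMCX5 lies at chrX:102599168-102604159, GPRASP1 at chrX:102651366-102659083 and GPRASP3 at chrX:102720688-102753540, each on the + strand. In the proximal group ARMCX4 (chrX:101418287-101533459), ARMCX1 (chrX:101550531-101554700) and ARMCX3 (chrX:101622797-101627843) are on the + strand, and ARMCX6 (chrX:101615118-101618001) and ARMCX2 (chrX:101655281-101659891) on the other. ARMC10 lies at chr7:103074881-103099764 on the + strand. The coding sequence of each of the 9 X-linked members sits in 1 exon, whereas that of ARMC10 is spread over 6. Among 10282 tested genes with a coding transcript, 4.89% had 1 coding exon.

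GPRASP1, GPRASP2 and GPRASP3 have near copies of one sequence at an annotated start. RefSeq windows (GRCh38.p14) that run from 250 bases before to 50 after a gene's start were found for 9 members, all but ARMCX3, with 11 windows in total. The window of GPRASP2 is printed here with the best-aligned stretch of the windows of GPRASP1 and GPRASP3 (for GPRASP3, its more distal start). Capitals mark bases of GPRASP1 or GPRASP3 that differ from GPRASP2 or are inserted.
GPRASP2, chrX:102712198-102712497, + strand: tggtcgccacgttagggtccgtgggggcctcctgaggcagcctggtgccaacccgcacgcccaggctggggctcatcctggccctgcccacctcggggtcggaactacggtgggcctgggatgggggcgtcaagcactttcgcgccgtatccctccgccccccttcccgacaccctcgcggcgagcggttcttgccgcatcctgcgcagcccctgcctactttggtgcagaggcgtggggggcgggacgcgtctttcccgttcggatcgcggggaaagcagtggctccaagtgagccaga
GPRASP1, chrX:102651234-102651528, + strand: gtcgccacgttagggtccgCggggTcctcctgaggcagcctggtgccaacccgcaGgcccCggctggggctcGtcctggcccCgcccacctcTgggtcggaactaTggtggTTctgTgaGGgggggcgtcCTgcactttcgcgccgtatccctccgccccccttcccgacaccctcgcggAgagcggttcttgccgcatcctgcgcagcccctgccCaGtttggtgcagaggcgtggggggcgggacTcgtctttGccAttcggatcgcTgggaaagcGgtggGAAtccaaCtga
GPRASP3, chrX:102745809-102746028, + strand: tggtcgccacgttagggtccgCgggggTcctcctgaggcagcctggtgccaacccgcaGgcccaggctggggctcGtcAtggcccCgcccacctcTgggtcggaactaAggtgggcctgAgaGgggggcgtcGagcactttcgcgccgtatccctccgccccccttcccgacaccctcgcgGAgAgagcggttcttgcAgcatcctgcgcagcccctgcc
Of 295 aligned positions in GPRASP1, 268 were identical to GPRASP2, or 90.8%. In GPRASP3 it was 205 of 220, or 93.2%. Over the whole 300 bases, the windows of the other members were 56.7% to 63.0% identical to that of GPRASP2.

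Another element recurs among the ARMCX starts. The letters CACGTG, the canonical E-box bound by MYC family proteins (the same on both strands), occurred in 5 of the 11 windows, each of a different member, against 7.23% of 34943 RefSeq windows of the same length. Each is shown within 50 bases of its window, the motif in capitals.
ARMCX1, chrX:101550496-101550545, + strand: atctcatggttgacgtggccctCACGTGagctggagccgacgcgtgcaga
ARMCX2, chrX:101659883-101659932, - strand: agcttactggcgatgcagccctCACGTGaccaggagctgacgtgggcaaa
ARMCX6, chrX:101617974-101618023, - strand: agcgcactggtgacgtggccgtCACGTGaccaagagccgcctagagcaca
ARMCX4, chrX:101485387-101485436, + strand: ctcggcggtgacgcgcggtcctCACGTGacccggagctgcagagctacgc
GPRASP3, chrX:102720653-102720702, + strand: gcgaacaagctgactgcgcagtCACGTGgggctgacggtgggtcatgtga
The windows of GPRASP1, GPRASP2, ARMCX5 and ARMC10 held no such match. Nor did the other window of ARMCX4, or the window of GPRASP3 at its more distal start. The bases beside the motif are alike in ARMCX1, ARMCX2, ARMCX4 and ARMCX6, so the matches cannot be counted as independent. A match is a string of letters and was not tied to any binding here.

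The 5′ UTRs of the family were long and held long purine runs, the kind of sequence on which rocaglates hold eIF4A. In 1 transcript per gene (the one APPRIS marks as principal, and the longest among equals), the 5′ UTR ran from 202 nt in ARMCX4 to 2622 nt in ARMCX5, against a median of 202 nt and quartiles of 101 and 356 nt among tested genes. The longest unbroken run of A and G in each was at least 12 nt, with a median of 18 nt over the members. A run of at least 12 nt was found in 19.1% of tested genes. Among the 5147 whose 5′ UTR was at least 202 nt long it was found in 31.9%. Both cut-offs are the members' own smallest values, so every member reaches them and these shares are no test of the members. The median run was 8 nt over tested genes and 10 nt over the 5147, which were not matched to the members in length. The runs of the GPRASP genes and of the ARMCX genes with the longest ones, read from GENCODE release 29 transcripts, are shown, written in capitals since each is purine throughout.
GPRASP1: GAAGAGAGGAGGGGGAGG
GPRASP2: GAGGAGAGGAGGGGGAGG
GPRASP3: GAGGAGAGGAGGGGGAGG
ARMCX2: GAGGAGGAGGAGGAGAAAA
ARMCX5: AAGGGGAGAGGAGAAGGAAAAGAAAA
ARMCX3: GGAGGGAAAAAGGAAGAGGAGAAGGAAA
GPRASP2 and GPRASP3 share the same run of 18 nt, a length reached by 4.21% of tested genes, and the ARMCX5 run of 26 nt was reached by 0.982%. The run depends on the transcript: over the annotated coding transcripts it was 5 to 12 nt in ARMC10, 9 to 21 nt in ARMCX2, 10 to 18 nt in GPRASP3, 13 to 26 nt in ARMCX5 and 18 to 28 nt in ARMCX3, so ARMC10, ARMCX2 and GPRASP3 also have transcripts with a run under 12 nt. The table does not say which transcripts the cells used.

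ARMCX5 held many upstream start codons. Its listed transcript has 34 ATG triplets in the 5′ UTR, a number that 0.233% of tested genes reach. Across the 6 coding transcripts of ARMCX5 the count went from 4 to 34 and the 5′ UTR from 618 to 2622 nt. The other members had from 0 (ARMCX1 and ARMCX4) to 4 (ARMCX3), with 2 in GPRASP2 and 3 in GPRASP3.

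Among the DMSO libraries, footprint levels differed widely within the family. ARMCX6 was the highest member at 29.4 ± 5.2 TPM and GPRASP1 the lowest at 0.253 ± 0.165 TPM (SD, n = 4 each). In order they were ARMCX6, ARMCX3, ARMCX2, GPRASP3, ARMCX5, GPRASP2, ARMCX1, ARMC10, ARMCX4 and GPRASP1. Only 3 neighbouring pairs in that order had ranges that did not overlap: ARMCX3 lay above ARMCX2, GPRASP3 above ARMCX5, and ARMCX4 above GPRASP1. In the CR31B libraries ARMCX6 was again first and GPRASP1 last, while GPRASP2 moved from rank 6 to rank 4 and ARMCX5 from 5 to 6. There, ranges of neighbours did not overlap between ARMCX3 and GPRASP2, between ARMCX5 and ARMCX4, and between ARMCX1 and GPRASP1.

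**Figure D1:**
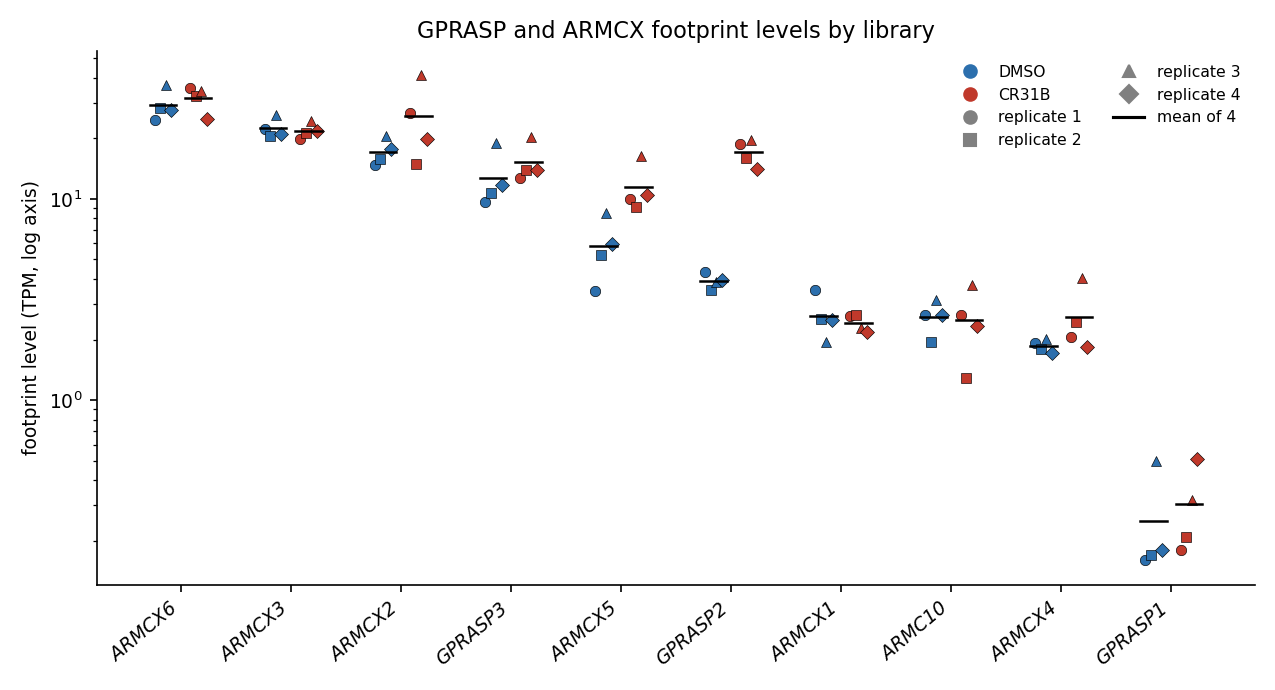
Footprint level (TPM, log axis) of each member in each of the 8 libraries, with 4 CR31B and 4 DMSO points per gene. The points of the groups are apart for GPRASP2 (14.08 to 19.56 against 3.53 to 4.32 TPM) and for ARMCX5 (9.15 to 16.24 against 3.49 to 8.48 TPM) and overlap for the other members.

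The order rests on dividing by whole transcripts, and the coding share of a transcript differs between members. The coding sequence makes up 30.5% of the ARMCX3 transcript, 32% of that of GPRASP3 and 92.5% of that of ARMCX4. Multiplying each DMSO mean by transcript length over coding length gave 73.6 for ARMCX3, 62.9 for ARMCX6, 39.8 for GPRASP3, 25 for ARMCX2, 16.1 for ARMCX5, 7.1 for ARMC10, 6.12 for GPRASP2, 4.14 for ARMCX1, 2.02 for ARMCX4 and 0.361 for GPRASP1, in TPM per coding length. On that scale ARMCX3 led, GPRASP3 stood above ARMCX2, and ARMC10 stood above GPRASP2 and ARMCX1. The scaling takes all reads as coding and does not touch a comparison of 1 gene between groups.

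Among the sorting proteins, GPRASP2 showed the largest difference of the family. Beyond binding G-protein-coupled receptors, the GPRASP2 protein is known to bind Smoothened and take part in its transport to the primary cilium. GPRASP2 (ENSG00000158301.18) measured 18.61, 15.86, 19.56 and 14.08 TPM across the CR31B libraries (replicates 1 to 4) and 4.32, 3.53, 3.86 and 3.94 TPM across the DMSO libraries, in the same order. Each CR31B library lay well above each DMSO library. The means were 17 ± 2.51 and 3.91 ± 0.324 TPM (SD, n = 4 each), a ratio of 4.35. The log2 difference was 1.87 (SE 0.13, 95% interval 1.57 to 2.16) and GPRASP2 was called. Among all 11778 tested genes, 15 (0.127%, GPRASP2 included) had a difference toward higher values in CR31B of at least that size. An estimated 792 to 4407 reads per library lie behind these values. Under the 17 alternatives that kept GPRASP2 as its own gene the difference ran from 1.80 to 2.09, and it was called in each. Adding the readthrough gene ARMCX5-GPRASP2, with which it shares exon sequence, lowered the difference to 1.0, and adding ARMCX5 as well gave 0.98.

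GPRASP3, whose protein is also named p60TRP and is known as a relative of the sorting proteins, was at 12.66, 13.91, 20.22 and 13.95 TPM in CR31B and at 9.64, 10.66, 18.96 and 11.66 TPM in DMSO. In 4 of 4 replicate pairs the CR31B library was the higher, but the groups overlapped, with replicate 3 far above the others in both. The log2 difference of GPRASP3 (ENSG00000198908.12) was 0.26 (SE 0.21, 95% interval -0.20 to 0.73), not called. The part of the shared start sequence or purine run in either value was not tested.

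GPRASP1, the best known of the sorting proteins, was the lowest member in both groups and stayed under the filter of 1 TPM. Its values (ENSG00000198932.13) were 0.18, 0.21, 0.32 and 0.51 TPM in CR31B and 0.16, 0.17, 0.50 and 0.18 TPM in DMSO, from an estimated 65 to 156 reads. The groups overlapped and GPRASP1 was not tested. Its start sequence is 90.8% identical to that of GPRASP2, whose DMSO mean was 3.91 TPM.

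Among the ARMCX genes, ARMCX5 was the member that was called. ARMCX5 (ENSG00000125962.14) measured 10.02, 9.15, 16.24 and 10.42 TPM across the CR31B libraries (replicates 1 to 4) and 3.49, 5.25, 8.48 and 5.99 TPM across the DMSO libraries, in the same order. The lowest CR31B library lay just above the highest DMSO library, and replicate 3 was the highest of both groups. The means were 11.5 ± 3.23 and 5.8 ± 2.07 TPM (SD, n = 4 each), a ratio of 1.97. The log2 difference was 0.89 (SE 0.24, 95% interval 0.37 to 1.41), and 181 tested genes (1.54%, ARMCX5 included) had one of at least that size toward higher values in CR31B. The call was fragile: of 16 alternatives that tested ARMCX5, 6 kept it, with limma adjusted p from 0.00952 with the replicate block to 0.165. It was lost on leaving out any 1 library except DMSO replicate 3, while the difference stayed between 0.71 and 1.07. With the readthrough gene added it was 0.59.

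**Figure D2:**
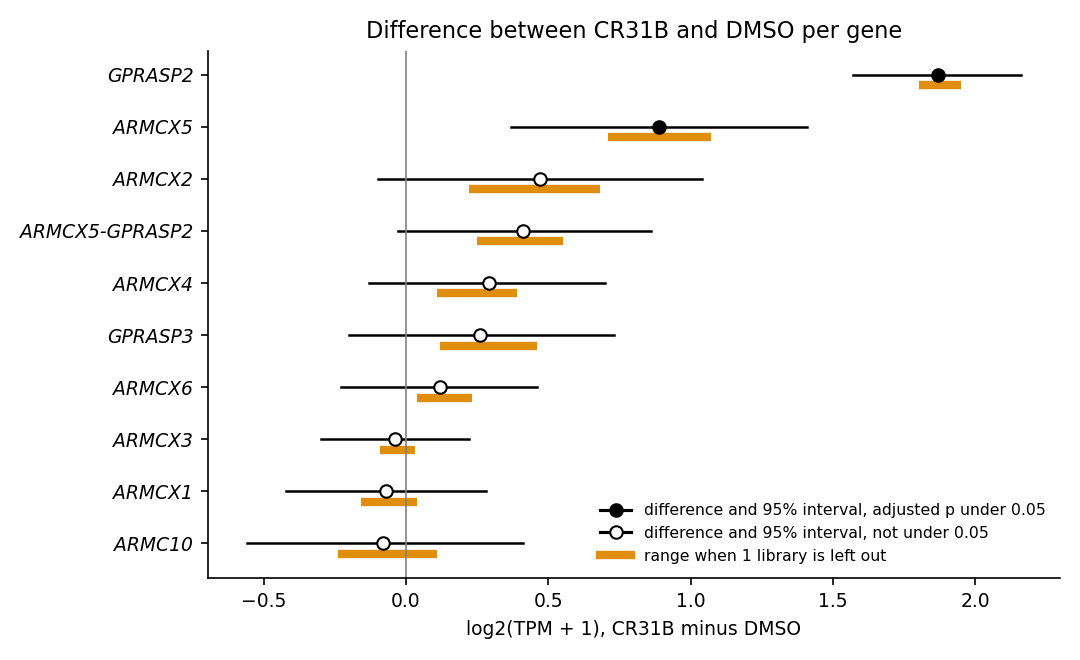
Difference between CR31B and DMSO in log2(TPM + 1) for each tested member and the readthrough gene ARMCX5-GPRASP2, with its 95% interval (black line) and its range when 1 library is left out (orange bar). GPRASP2 at 1.87 and ARMCX5 at 0.89 have filled points and intervals above 0, and the other intervals include 0.

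The mitochondrial members with the best known function had differences near 0. ARMCX3 (ENSG00000102401.20), which regulates mitochondrial transport in axons, was at 19.81, 21.31, 24.47 and 21.63 TPM in CR31B and at 22.19, 20.50, 26.05 and 21.01 TPM in DMSO. Its log2 difference was -0.04 (SE 0.12, 95% interval -0.30 to 0.22), and leaving out CR31B replicate 1 or DMSO replicate 3 turned the sign. ARMCX1 (ENSG00000126947.13), known for promoting mitochondrial transport and axon regrowth after injury, was at 2.61, 2.64, 2.27 and 2.17 TPM in CR31B and at 3.53, 2.52, 1.95 and 2.51 TPM in DMSO. Its groups overlapped, at -0.07 (SE 0.16, 95% interval -0.42 to 0.28), and without DMSO replicate 1 the difference was 0.04. ARMCX6 (ENSG00000198960.11) was at 35.37, 32.56, 34.44 and 24.92 TPM in CR31B and at 24.63, 28.37, 36.77 and 27.65 TPM in DMSO. It overlapped too, at 0.12 (SE 0.15, 95% interval -0.23 to 0.46).

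ARMCX2 and ARMCX4 were higher on average in CR31B, mostly through 1 or 2 libraries. ARMCX2 (ENSG00000184867.14) was at 26.80, 14.90, 41.17 and 19.79 TPM in CR31B and at 14.64, 15.84, 20.43 and 17.75 TPM in DMSO. The CR31B libraries straddled the DMSO range, with replicates 1 and 3 above it and replicate 2 near its lower end. The log2 difference of ARMCX2 was 0.47 (SE 0.26, 95% interval -0.10 to 1.04), and without CR31B replicate 3 it was 0.22. ARMCX4 (ENSG00000196440.11), which has the longest coding sequence of the family at 6870 nt, was at 2.07, 2.43, 4.04 and 1.83 TPM in CR31B and at 1.93, 1.80, 2.02 and 1.72 TPM in DMSO. Its CR31B replicate 3 stood above the rest, and its log2 difference was 0.29 (SE 0.19, 95% interval -0.13 to 0.70), and 0.14 without replicate 3 of both groups.

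ARMC10, the autosomal relative, is known as a mitochondrial protein that acts in fission and transport of the organelle. It was at 2.64, 1.29, 3.75 and 2.33 TPM in CR31B and at 2.65, 1.94, 3.15 and 2.66 TPM in DMSO (ENSG00000170632.14). The groups overlapped, at -0.08 (SE 0.22, 95% interval -0.56 to 0.41), and without CR31B replicate 2 the difference was 0.11. Its estimated 172 to 511 reads per library, with 210 to 532 for ARMCX1, were the lowest among the tested members.

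Counted together, 2 of the 9 tested members were called, both higher in CR31B, against 3.45% of all tested genes called higher, 4.02% called lower and 7.46% called in either direction. The groups did not overlap for the same 2 members, and over all tested genes CR31B lay wholly above DMSO for 8.07%, wholly below it for 8.14% and apart from it either way for 16.2%. The family was chosen on this contrast, so nothing is read from these shares. The difference was above 0 for 6 of the 9, compared with 54.1% of all tested genes, and the median was 0.26, compared with 0.029 over all. The summed level of the 10 members was 130.8, 114.3, 166.5 and 111.6 TPM in CR31B and 87.2, 90.6, 122.2 and 95.1 TPM in DMSO. GPRASP2 made up 11.7% to 14.2% of that sum in CR31B and 3.2% to 5.0% in DMSO.

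Within replicate pairs, 4 members were higher in CR31B in all 4 pairs (GPRASP2, ARMCX5, GPRASP3 and ARMCX4) and none was lower in all 4, where 20.1% and 18% of all tested genes were. GPRASP2 differed by 1.88, 1.90, 2.08 and 1.61 in pairs 1 to 4, and ARMCX5 by 1.30, 0.70, 0.86 and 0.71. The other members with 4 of 4 were smaller: 0.36, 0.35, 0.09 and 0.24 for GPRASP3, and 0.07, 0.29, 0.74 and 0.06 for ARMCX4. With the replicate number as a block, the members called were again 2, beside 12.3% of all tested genes. The pairs rest on the replicate numbers alone, and pair 4 was not borne out by the correlations between libraries.

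**Figure D3:**
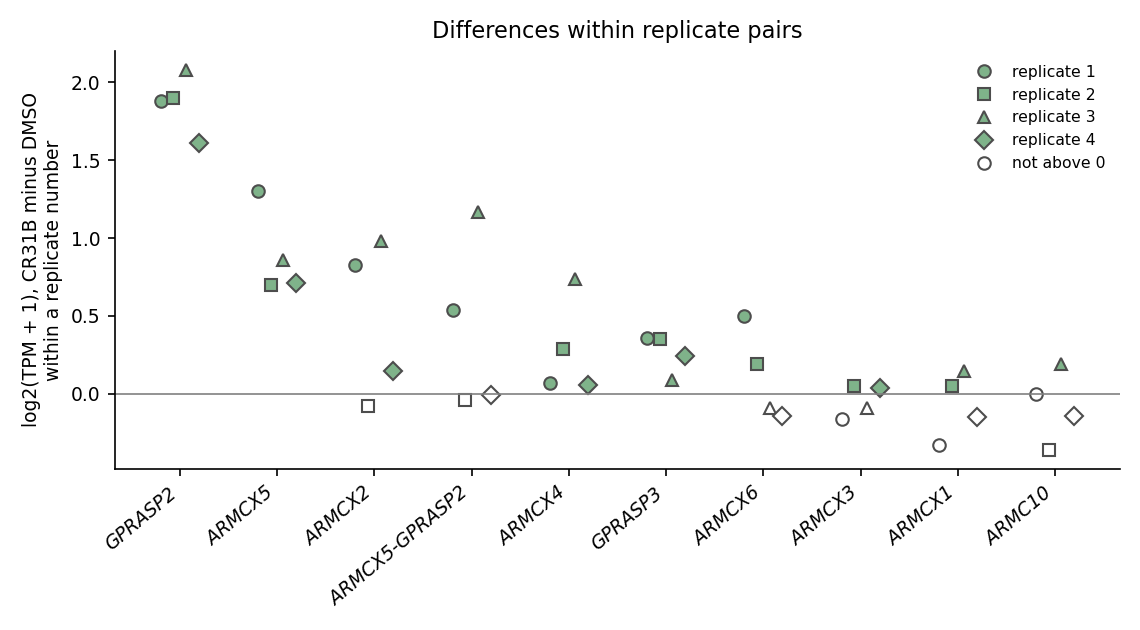
Difference in log2(TPM + 1), CR31B minus DMSO, within each of the 4 replicate pairs, by gene; open points are not above 0. GPRASP2 lies between 1.61 and 2.08 in all pairs and ARMCX5 between 0.70 and 1.30, while ARMCX2 spreads from -0.08 in pair 2 to 0.98 in pair 3.

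Replicate 3 was the high library for most of the family in both groups. It was the highest CR31B library for 7 of the 9 tested members, the highest DMSO library for 7 and the highest of both groups for 6, against 34.3%, 29.1% and 14.5% of all tested genes. GPRASP3 was at 20.22 and 18.96 TPM in the CR31B and DMSO libraries of replicate 3, where the other 6 libraries lay from 9.64 to 13.95 TPM. Leaving out replicate 3 of both groups, a setting chosen after seeing these values, gave 1.80 for GPRASP2, 0.90 for ARMCX5, 0.32 for GPRASP3 and 0.30 for ARMCX2, and the members called were still 2. By the rough estimate of read numbers, 1 read on 1 kb stood for 0.0229 TPM in CR31B replicate 3 and 0.0190 TPM in DMSO replicate 3. Each was the highest such value of its group, so these libraries were the shallowest by that estimate. What set replicate 3 apart, and the part of depth in it, was not tested.

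The values of GPRASP2 and ARMCX5 depend on how reads were divided with the readthrough gene ARMCX5-GPRASP2, whose transcripts join the loci. It is annotated at chrX:102599512-102714671 on the + strand in GENCODE release 29, as a processed transcript without a coding sequence. Its exons share 669 nt with ARMCX5 (13.6% of that gene's exons) and 281 nt with GPRASP2 (7.1%). In GENCODE release 29 none of the coding sequence was shared. Of all stretches of 28 nt in the GPRASP2 coding sequence 0 matched the readthrough gene, and likewise 0 for ARMCX5. The overlap there lies in the untranslated parts, with 230 such stretches of GPRASP2 and 538 of ARMCX5. The annotation behind the deposited values is not known, and it holds an identifier of the readthrough gene that release 29 lacks. Whether coding sequence was shared in that annotation was not tested.

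ARMCX5-GPRASP2 was nonetheless listed at a level like that of the coding genes. Its main identifier (ENSG00000271147.8) measured 18.71, 16.34, 20.29 and 12.81 TPM across the CR31B libraries (replicates 1 to 4) and 12.58, 16.87, 8.44 and 12.94 TPM across the DMSO libraries, in the same order. The groups overlapped, and the log2 difference was 0.41 (SE 0.20, 95% interval -0.03 to 0.86), not called, with pairs at 0.54, -0.04, 1.17 and -0.01, and 0.16 without replicate 3 of both groups. A further identifier of the same symbol (ENSG00000286237.1) was at 0.27 TPM or less. In DMSO replicate 3, where the readthrough gene was lowest, ARMCX5 was highest, at a ratio of 1.0 to it against 0.28 to 0.46 in the other DMSO libraries. The ratio of GPRASP2 to the readthrough gene was 0.96 to 1.10 in CR31B and 0.21 to 0.46 in DMSO, with no overlap.

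**Figure D4:**
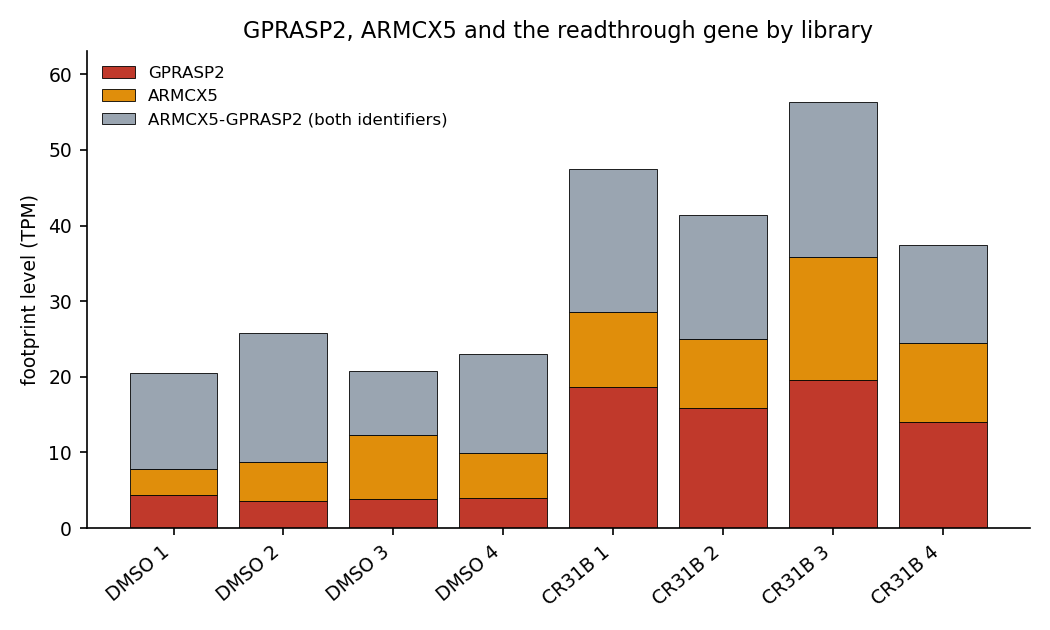
Footprint level (TPM) of GPRASP2, ARMCX5 and the readthrough gene ARMCX5-GPRASP2, stacked for each library. The stack reaches 37.48 to 56.36 TPM in CR31B and 20.44 to 25.83 TPM in DMSO, and the GPRASP2 section is the one that differs most.

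The levels were also added, which limits the effect of dividing reads, although each gene was scaled by its own length. GPRASP2 with the readthrough gene came to 37.47, 32.30, 40.12 and 27.06 TPM in CR31B and to 16.95, 20.58, 12.30 and 16.97 TPM in DMSO. Its log2 difference was 1.0 (SE 0.17, 95% interval 0.62 to 1.38), with the groups apart. ARMCX5 with the readthrough gene averaged 28.7 ± 5.87 TPM under CR31B against 18.6 ± 2.76 TPM under DMSO (SD, n = 4 each), a log2 difference of 0.59 (SE 0.16, 95% interval 0.24 to 0.94). By limma's adjusted p this sum stood at 0.0495, and the call was lost with the replicate block (0.0558), with no filter (0.138), without the variance trend (0.0599), with a pseudocount of 0.1 (0.0509), without replicate 3 of both groups (0.151) and on leaving out any 1 library (0.0532 to 0.127). All 3 together were at 47.49, 41.45, 56.36 and 37.48 TPM in CR31B and at 20.44, 25.83, 20.78 and 22.96 TPM in DMSO. That summed level also had no overlap, at 0.98 (SE 0.14, 95% interval 0.66 to 1.30), and it was 0.84 without replicate 3 of both groups.

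Sequence shared with other genes touched some members much more than others. In GPRASP2 132 of 2487 coding stretches of 28 nt (5.31%) recur in GPRASP1, which was at 0.51 TPM or less in every library. In ARMCX5, ARMCX1, ARMCX3 and ARMCX4 no coding stretch recurred among the transcripts of GENCODE release 29. For ARMCX6 57.04% recurred, all in the pseudogene ARMCX7P, which was at 1.99 to 3.36 TPM in CR31B and 2.35 to 3.48 TPM in DMSO. For ARMC10 72.80% recurred in the pseudogene ARMC10P1, at 0.45 TPM or less. GPRASP3 shared 10.84% with BHLHB9P1, which was listed at 0 in every library. The levels of ARMCX6 and ARMC10 are therefore uncertain to the extent that reads were divided.

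The genes whose pattern was most like that of GPRASP2 were found by Pearson correlation of log2(TPM + 1) over the 8 libraries, among 7683 genes averaging 5 TPM or more. They were CCDC59 (r of 0.991), WDR36 (0.990), MARK1 (0.990), PPP1R15B (0.988) and KNL1 (0.988). WDR36 is a factor of ribosome biogenesis, MARK1 a kinase that acts on microtubule-associated proteins, PPP1R15B a subunit that directs the dephosphorylation of eIF2, and KNL1 a kinetochore scaffold. MARK1 came near GPRASP2 in size with 1.89 (SE 0.14), whereas CCDC59 differed by 0.59 (SE 0.09). CCDC59 was at 53.57 to 56.75 TPM in CR31B and at 34.52 to 37.36 TPM in DMSO. Among members, ARMCX5 had an r of 0.799 with GPRASP2, ARMCX2 0.592, GPRASP3 0.417, ARMCX6 0.335 and ARMCX3 -0.123. The 8 libraries share the step between the groups, so any gene that rose by much more than its spread within the groups scores high.

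Among genes beside the family on the X chromosome, more differences lay below 0 than above it. The BEX and TCEAL genes, small adaptor-like and elongation-factor-like proteins encoded in the same band (Xq22), were tested for 11 of 14, and 2 fell, none rose and the median was -0.20. The 2 calls are 18.2% of the list, beside 7.46% of all tested genes. BEX3, which binds the neurotrophin receptor p75, was at 127.53, 142.18, 111.41 and 137.21 TPM in CR31B and at 191.49, 187.78, 183.42 and 214.58 TPM in DMSO, and it fell by 0.58 (SE 0.11, limma adjusted p of 0.0139). BEX1 averaged 191 ± 10.6 TPM under CR31B against 262 ± 9.97 TPM under DMSO (SD, n = 4 each), and it fell by 0.46 (SE 0.10, limma adjusted p of 0.0205). The summed level of the list was 488.7 to 512.1 TPM in CR31B and 632.8 to 704.7 TPM in DMSO, with no overlap. BEX1 and BEX3 made up most of that sum, so it says little about the rest of the list. Of the 11 tested genes, 2 had a difference above 0. The BEX1 call was lost without CR31B replicate 3 or 4 or DMSO replicate 2 or 4, and that of BEX3 without DMSO replicate 4. With the replicate block 4 of the list were called, all lower, beside 12.3% of all tested genes. Without DMSO replicate 4 the count was 0, without CR31B replicate 4 or DMSO replicate 2 it was 1, and without DMSO replicate 3 it was 4.

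Of 32 other genes of the band, 15 were tested, 1 rose, 1 fell (13.3% called, beside 7.46% of all tested genes) and the median was -0.22. SYTL4, a Rab effector in vesicle exocytosis, was at 18.10, 20.82, 19.84 and 17.83 TPM in CR31B and at 10.66, 10.27, 12.05 and 9.65 TPM in DMSO, and it rose by 0.79 (SE 0.11, limma adjusted p of 0.00377). TMSB15A, an actin-binding thymosin, averaged 78.9 ± 15.1 TPM under CR31B against 131 ± 22.2 TPM under DMSO (SD, n = 4 each), and it fell by 0.73 (SE 0.17, limma adjusted p of 0.0265). The TMSB15A call was lost on leaving out CR31B replicate 3 or 4 or DMSO replicate 2 or 4, leaving 1 gene called.

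Among the partners through which ARMCX1 and ARMCX3 are known to act, none was called, beside 7.46% of all tested genes. Of 18 Miro, TRAK, kinesin and mitofusin genes 16 were tested and limma called 0, too few genes for that 0 to be read as a result. By limma 4 had an unadjusted p under 0.05, a count for which the share over all tested genes was not taken. The median was -0.07 with 8 above 0. TRAK1 had a log2 difference of -0.42 (limma adjusted p of 0.0938), KIF5B one of -0.35 (limma adjusted p of 0.11), RHOT1 one of -0.17 and RHOT2 one of 0.22. With the replicate block, KIF5B was called, lower in CR31B (limma adjusted p of 0.0491), beside 12.3% of all tested genes called with that block.

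The machinery that sorts internalised receptors, the setting of the GPRASP proteins, gave calls in both directions. Of 27 genes 26 were tested, 2 rose and 5 fell, which is 26.9% beside 7.46% of all tested genes, and the median was -0.16. RAB7A, the GTPase of late endosomes and lysosomes, was at 155.38, 158.34, 157.51 and 153.86 TPM in CR31B and at 285.56, 255.97, 255.78 and 277.27 TPM in DMSO, and it fell by 0.78 (SE 0.10, limma adjusted p of 0.00193). RAB5A, the GTPase of early endosomes, averaged 9.48 ± 0.599 TPM under CR31B against 16.3 ± 2.97 TPM under DMSO (SD, n = 4 each), and it fell by 0.71 (limma adjusted p of 0.0139). GRK2, the kinase that marks active receptors for arrestin, averaged 11.9 ± 1.94 TPM under CR31B against 21.5 ± 1.7 TPM under DMSO (SD, n = 4 each), and it fell by 0.81 (SE 0.13, limma adjusted p of 0.00606).

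BECN1 (beclin 1), an autophagy factor in the same list, fell by 0.71 (limma adjusted p of 0.00729), and DTNBP1, known as dysbindin, fell by 0.40 (limma adjusted p of 0.0433). The DTNBP1 call was lost on leaving out any 1 library. STAM, a subunit of the complex that collects ubiquitinated receptors, was at 38.95, 44.28, 51.64 and 47.28 TPM in CR31B and at 26.59, 29.82, 25.22 and 27.07 TPM in DMSO, and it rose by 0.72 (SE 0.12, limma adjusted p of 0.00626). SNX1, a retromer-associated sorting nexin, rose by 0.71 (SE 0.18, limma adjusted p of 0.0382), although CR31B replicate 2, at 81.23 TPM, lay under DMSO replicate 3, at 84.09 TPM. That SNX1 call was kept only without CR31B replicate 2 or DMSO replicate 3 when 1 library was left out.

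Armadillo-repeat proteins outside the family were spread around 0. Of 32 genes 23 were tested, 1 rose, 1 fell (8.7% called, beside 7.46% of all tested genes) and the median was 0.01. APC2, a relative of the tumour suppressor APC, averaged 5.04 ± 0.497 TPM under CR31B against 3.01 ± 0.518 TPM under DMSO (SD, n = 4 each), and it rose by 0.60 (SE 0.14, limma adjusted p of 0.0284). CTNND1, the catenin p120 of adherens junctions, averaged 14.8 ± 2.71 TPM under CR31B against 22.6 ± 2.77 TPM under DMSO (SD, n = 4 each), and it fell by 0.59 (SE 0.15, limma adjusted p of 0.0381). The APC2 call was lost without CR31B replicate 3 or 4 or DMSO replicate 1, 2 or 4, and that of CTNND1 on leaving out any 1 library except CR31B replicate 1. With the replicate block 5 of the list were called, 2 higher and 3 lower, beside 12.3% of all tested genes. The count was 0 on leaving out CR31B replicate 3 or 4 or DMSO replicate 1, 2 or 4, and 1 without CR31B replicate 2.

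**Figure D5:**
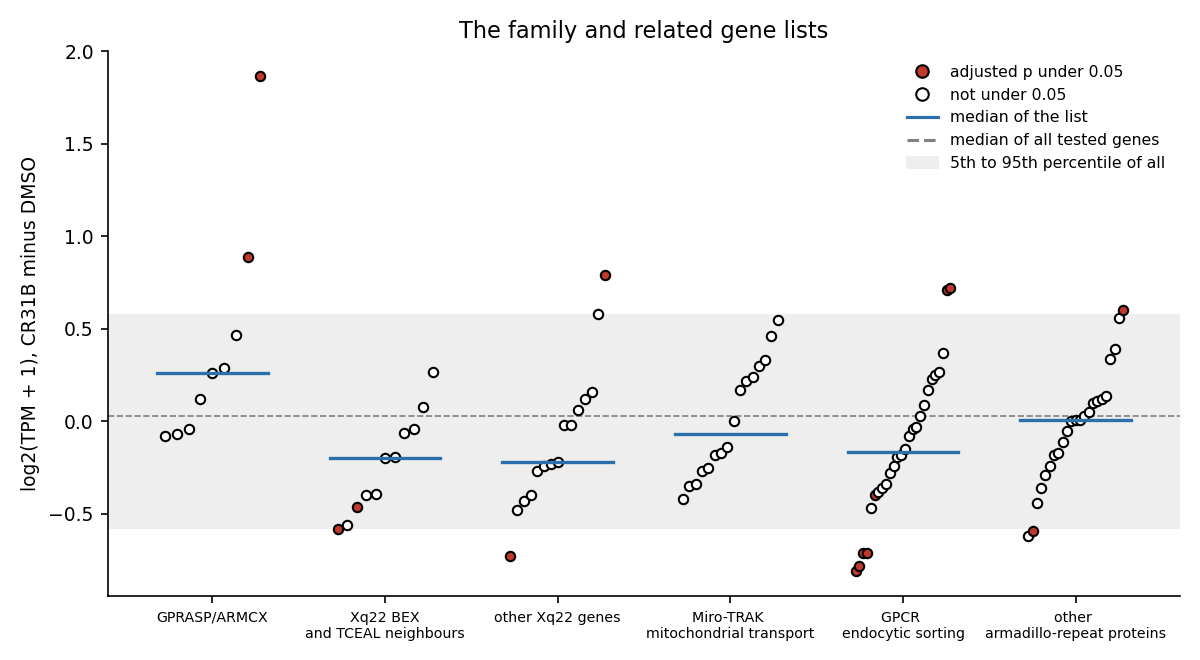
Difference in log2(TPM + 1), CR31B minus DMSO, of each tested gene of the family and of 5 related lists, with the median of each list (blue) and the 5th to 95th percentile of all tested genes (grey band). The family's median of 0.26 lies above the median of all tested genes, 0.029, and those of the X-linked neighbour lists, -0.20 and -0.22, lie under it.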

How the data were processed

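Ribosome footprints were measured in 8 libraries of IMR32 cells, and the authors deposited 1 table of TPM values for 60651 genes, per the file header. Per the submitters' processing notes, the tools used included cutadapt 3.2, Bowtie2 2.3.4.1, STAR 2.7.1a, RSEM 1.2.28 and DESeq2 1.32.0, and the build was hg38 (GRCh38); the roles of the tools, the annotation release, the strand setting and the treatment of reads with several positions are not given in the sources used here. Per the labels, rRNA was blocked with probes and libraries were read in more than 1 run, with no record of which library was in which run. Since TPM in each library add to the same total and are divided by transcript length, a change in abundant RNA moves all other genes. TPM are not counts, so no count model was used.

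Each of the 8 columns matched 1 library by its label, and 0 columns were left over. Values were analysed as log2(TPM + 1) for the 11778 genes averaging at least 1 TPM. They were fitted with limma 3.58.1 in R 4.3.3 (lmFit, eBayes with a mean-variance trend, treatment as the only term) with Benjamini-Hochberg adjustment over all tested genes. Tested on simulated data for this comparison over 11778 genes, the fit recovered 95.4% of genes changed 4-fold, and 3.95% of its calls were false. Over all changed genes of those data it recovered 87%, a share that was not split by size. Recovery of differences as small as most of those called here was not tested separately. The simulated libraries held no replicate effect. The members and the gene lists were chosen with earlier results of these data known. Each list contributed its most strongly raised and most strongly lowered called genes by name, at most 3 in each direction. The receptor-sorting list is an exception, with all 5 of its lowered called genes named. The uncalled Miro and TRAK genes, KIF5B, TWIST1 and the markers at 0 were picked after their values were seen. An item of the neuroblastoma marker list, and the counts and sums that hold it, are not reported here.

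Both groups use the replicate numbers 1 to 4, whose meaning no label states. Deviations from the group means correlated across genes at 0.333, 0.324, 0.301 and 0.105 between libraries that share a number, and at -0.206 to 0.134 between the rest. The numbers were used as pairs, with a replicate block as an alternative. For number 4 the pairing is not borne out: CR31B replicate 4 correlated at 0.134 with DMSO replicate 1 and at 0.105 with DMSO replicate 4. Other alternatives were pseudocounts of 0.5 and 0.1, no filter or a mean of at least 10 TPM, rescaling over protein-coding genes, quantile normalization, no variance trend, and leaving out each library.

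Read numbers behind a gene were estimated from the TPM value of 1 read in short genes with 1 transcript, and are rough, since RSEM shares reads between genes. The value of 1 read on 1 kb ran from 0.0109 TPM in DMSO replicate 2 to 0.0229 TPM in CR31B replicate 3. Transcripts, exons and coordinates came from GENCODE release 29, which gave a gene type for 58405 identifiers, and symbols matched 60481. Promoter windows came from RefSeq (GRCh38.p14). Python 3.11.15, pandas 2.3.3 and Biopython 1.88 (alignments) served for the other steps.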

Additional observations from a re-analysis of the deposited data

Results flagged for a closer look

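Unusual single libraries were looked for in each group of 4. A library was noted when the distance to its closest neighbour took up most of the spread of that group, by Dixon's criterion. This occurred in 2 of 24 groups, where about 1.2 arise by chance. For GPRASP3 it was CR31B replicate 3, with 20.22 TPM, while the remaining CR31B libraries lay between 12.66 and 13.95 TPM. DMSO replicate 3 was likewise its group's highest for this gene, with 18.96 TPM. For GPRASP1 it was DMSO replicate 3, with 0.50 TPM, while the remaining DMSO libraries lay between 0.16 and 0.18 TPM, on an estimated 65 to 156 reads per library over all 8.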

How the results depend on the processing

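The genes called, 879 as reported, were 442 with no filter on low values, 1453 with the replicate block and 404 to 785 on leaving out 1 library. The members called fell from 2 to 1 (GPRASP2 alone) with no filter, with a mean of at least 10 TPM (ARMCX5 was not tested there), after rescaling over protein-coding genes and without the variance trend, and were 1 to 2 on leaving out 1 library. In the BEX and TCEAL list, 2 called became 4 with the replicate block, 1 without replicate 3 of both groups (added after seeing the data) and 0 to 4 on leaving out 1 library. Among other genes of the band, 2 became 1 with no filter, 1 without replicate 3 of both groups and 1 to 2 on leaving out 1 library. In the Miro and TRAK list, 0 became 1 with quantile normalization and 1 with the replicate block. Among other armadillo-repeat genes, 2 became 0 with no filter, 1 with a mean of at least 10 TPM, 5 with the replicate block and 0 to 2 on leaving out 1 library. Signs reversed on leaving out 1 library for ARMC10 (range -0.24 to 0.11, above 0 without CR31B replicate 2), ARMCX1 (-0.16 to 0.04, above 0 without DMSO replicate 1) and ARMCX3 (-0.09 to 0.03; 0.01 without CR31B replicate 1, 0.03 without DMSO replicate 3). The summed level of GPRASP2, ARMCX5 and the readthrough gene kept its direction and call in each alternative, as did GPRASP2 with the readthrough gene, whereas ARMCX5 with the readthrough gene kept its direction but lost its call in 13 alternatives. The replicate block changed no call of a member. The causes were not tested, beyond the smaller sets of genes or libraries in the settings named. Depth limits GPRASP1, ARMCX1 and ARMC10 most, at 65 to 532 estimated reads.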
